A study of Arabidopsis thaliana with 12 samples.

Results

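The response of the Arabidopsis thaliana line bbx28-5 to simulated shade was read from 6 of the 12 RNA sequencing libraries of a study on BBX28. The 6 libraries were chosen by their labels: 3 from bbx28-5 seedlings moved to simulated shade (bbx28-5_SS) and 3 from bbx28-5 seedlings left in white light (bbx28-5_WL). The remaining 6 came from the wild-type accession Col-0 in the same lights and entered only where the bbx28-5 response was set against that of Col-0. Whole seedlings were sampled, from the Columbia background, after 2 days of short days (10 h of light, 14 h of darkness) and 4 h of the light treatment, in biological triplicate. The shade came from a green filter, which lowered several things at once: photosynthetically active radiation was 20 µmol m-2 s-1 in shade and 90 µmol m-2 s-1 in white light, blue light was 1.3 and 8.1 µmol m-2 s-1, and the ratio of red to far-red light was 0.145 and 1.1. A loss of red relative to far-red light therefore cannot be told apart here from a loss of light as such. The mutant is 1 line with 1 allele, the lesion of which no source used here gives, and no second allele or complemented line was analysed here.

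Plants recognise neighbours by the far-red-rich light that leaves reflect and transmit. In that light phytochrome B loses activity, phytochrome-interacting factors (bHLH transcription factors) accumulate, and genes of auxin synthesis and cell elongation are switched on, while bHLH proteins such as HFR1 and homeodomain proteins such as HB-2 shape and limit the response. Deep shade also starves the seedling of sugar, to which plant cells answer by breaking down amino acids and recycling cell contents. BBX28 is a B-box zinc finger protein known to bind HY5, a bZIP factor that promotes light-grown development.

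The bbx28-5 libraries held 10614484 to 12506840 counts in shade and 10952328 to 13717606 counts in white light, so that 3 counts in a library, used here as the floor of detection, amounted to 0.277 to 0.346 CPM (counts scaled to a fixed library total) in shade and 0.204 to 0.258 CPM in white light. Floors and intervals cover counting error only. All levels below are CPM scaled with TMM factors (trimmed mean of M values), which aligns the bulk of genes between libraries. The TMM factors averaged 0.841 ± 0.0442 in the shade libraries and 1.07 ± 0.00548 in the white light libraries (SD, n = 3 each). Scaling by total counts alone therefore shifted the shade changes down together, and the median change over all genes was -0.34 on the log2 scale with total counts, against 0.00 with TMM. Shade replicate 2 stood apart from its group. Its log2 CPM correlated at 0.963 to 0.964 with shade replicates 1 and 3, which correlated at 0.987 with each other, and 2151 genes lay at least 2-fold from the mean of those libraries. Values are with TMM and all libraries unless stated. Many results that moved without this library or with total counts are given both ways, but not all. The labels mark no batch. Markers of green tissue, root hairs and endodermis were detected. The kit marked strand, but no source used here gives the strand setting for counting, and 63 of the 242 genes named below overlap a gene on the opposite strand in the RefSeq annotation and 9 overlap one on the same strand. The longest overlaps are those of PHOT2 (2760 bases), PCL1 (1507 bases) and FER1 (1334 bases), and reads of the partners cannot be told apart from theirs.

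BBX28 itself (AT4G27310) was detected in every bbx28-5 library. Its level was 160.00, 209.8 and 144 CPM in shade replicates 1 to 3, against 108, 104 and 99.8 CPM in white light replicates 1 to 3. In Col-0 it had 108, 115 and 104 CPM in shade, against 72.4, 74.2 and 64.1 CPM in white light. In bbx28-5 the shade libraries all lay above the white light libraries, and replicate 2 was the highest. The log2 change was 0.72 ± 0.12 (SE, adjusted p = 0.000135 by edgeR's quasi-likelihood test with Benjamini-Hochberg adjustment, the test used throughout), 0.37 with total counts and 0.53 without shade replicate 2. The change did not differ detectably from that of Col-0 (interaction 0.08, adjusted p = 0.798). Since the lesion is not given, the presence of the transcript does not test the genotype label.

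Shade changed 13308 of 19711 tested genes in bbx28-5, which is 67.5% of them at an adjusted p under 0.05. Of the tested genes 34.4% (6786) were higher and 33.1% (6522) were lower in shade, and 34.9% (6879) changed at least 2-fold. These shares are the background against which every gene group below should be read, and a group with similar shares moved like the rest of the transcriptome. In whole seedlings a lower level of a transcript can come from less RNA per cell or from fewer cells of the type that makes it, and these cannot be told apart. The 3 shade and 3 white light libraries did not overlap for 68.1% of the tested genes, shade being higher for 33.8% and lower for 34.3%. Larger falls outnumbered larger rises. At 4-fold or more, 897 genes were higher and 1308 lower, at 8-fold or more 292 and 461, and at 32-fold or more 48 and 82. The call held in the same direction for 10149 of the 13308 genes, or 76.3%, in all 8 of these settings: TMM, total counts, and TMM with each of the 6 bbx28-5 libraries left out in turn. Those genes comprised 4607 higher and 5542 lower ones, and 6515 of them changed at least 2-fold.

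**Figure D1:**
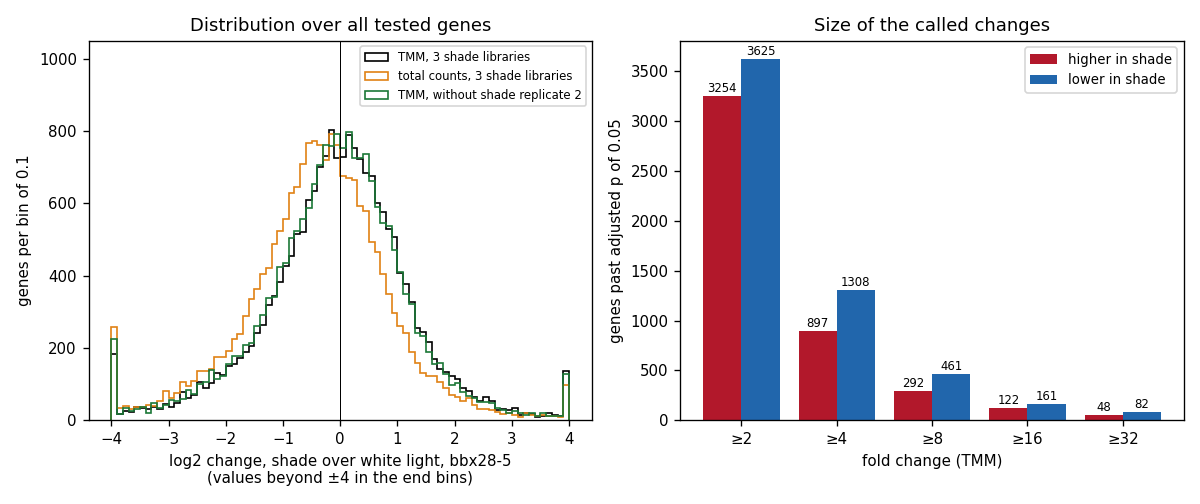
Left, histogram of the log2 change (shade over white light in bbx28-5) over all tested genes, in bins of 0.1, for TMM scaling, for total counts and without shade replicate 2. The curve for total counts is shifted to the left, with a median of -0.34, whereas the other medians are 0.00 and -0.04. Right, bars give the number of called genes at or above each fold change, 3254 higher and 3625 lower at 2-fold and 48 and 82 at 32-fold.

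Among the largest rises that held without any 1 library and under both scalings were genes of the cell wall, of stress and of starvation. XTH15 (AT4G14130), a xyloglucan endotransglucosylase/hydrolase that remodels the wall of elongating cells, had 2159, 2953 and 2074 CPM in shade, against 14.8, 13.9 and 15.1 CPM in white light. RTFL21 (AT1G67265), a member of the ROTUNDIFOLIA-like family of small polypeptides, had 36.2, 33.7 and 35.9 CPM in shade, against 0.136, 0.0757 and 0.0861 CPM in white light, where it had 4 counts in all. Shade and white light were far apart for both genes, with log2 changes of 7.36 ± 0.24 and 8.31 ± 0.18 (SE). The white light values of RTFL21 all lay below the floor of detection, so the size of its change is uncertain. APX2 (AT3G09640), an ascorbate peroxidase known for its induction by heat and strong light, had 813 counts in the shade libraries and 2 in the white light libraries, a 559.8-fold ratio with an exact binomial 95% interval of 154 to 4630. SEN1 (AT4G35770), a senescence-associated gene known to be induced in darkness, had 5024, 8898 and 4270.2 CPM in shade, against 66.4, 49.8 and 50.6 CPM in white light. Shade replicate 2 was the highest for SEN1, and its change of 6.77 ± 0.29 was 6.36 without that library. The other genes among the 10 largest rises were the small heat shock genes HSP17.4, HSP17.6A, HSP23.6-MITO and ATHSP22.0, the calcium-binding EF-hand gene AT1G21550 (log2 change 6.78 ± 0.29) and the DUF506 gene AT1G62420 (6.46 ± 0.27).

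The largest falls were led by a cysteine proteinase gene, AT2G27420, at 0.109, 0.231 and 0.185 CPM in shade, against 35.7, 42.6 and 43.5 CPM in white light, a log2 change of -7.78 ± 0.26. That left 5 counts in the 3 shade libraries together and 1592 in the white light libraries. All 3 shade values lay below the floor of detection, so the size of this fall is uncertain. MYB28 (AT5G61420), the main activator of methionine-derived glucosinolate genes, had 1.09, 0.462 and 0.646 CPM in shade, against 35.3, 36.2 and 36.7 CPM in white light (-5.60 ± 0.25). RGF9 (AT5G64770), which encodes a secreted root meristem growth factor peptide, had 0.979, 2.54 and 1.75 CPM in shade, against 77.8, 69.6 and 86.2 CPM in white light (-5.47 ± 0.22), and EXPB3 (AT4G28250), a beta-expansin, had 1.52, 1.62 and 1.02 CPM in shade, against 50.03, 61.1 and 49.9 CPM in white light (-5.29 ± 0.21). For none of these 4 genes did a shade library come near a white light library, but the largest rises and falls were chosen among genes without overlap. The remaining falls among the 10 were AT1G13650, AT2G15020 and AT3G44450, which are annotated as uncharacterized, the plastid-annotated gene AT2G27402, the GDSL lipase gene AT1G28610 and the receptor kinase gene AT1G51805, with log2 changes from -6.25 to -5.31.

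Counted as shares of all counts, genes of starvation gained most and genes of carbon fixation lost most. ASN1 (AT3G47340), the glutamine-dependent asparagine synthetase that stores nitrogen when carbon is short, took 0.735%, 0.406% and 0.761% of all counts in the shade libraries, against 0.0173%, 0.0136% and 0.0142% in the white light libraries. This was the largest gain of any gene. SEN1 took 0.435%, 0.703% and 0.370% of counts in shade, against 0.00711%, 0.00530% and 0.00537% in white light. The largest loss was that of the Rubisco small subunit gene RBCS1A, at 0.640%, 0.781% and 0.622% of counts in shade, against 1.70%, 1.69% and 1.68% in white light. The Rubisco activase gene RCA followed, at 0.724%, 0.775% and 0.730% in shade, against 1.40%, 1.42% and 1.43% in white light. The other 8 gains were those of AT3G15450 (an aluminium-induced protein), the carbonic anhydrase gene CA2, the aquaporin gene PIP3, the raffinose synthase family gene DIN10, the DnaJ gene J8, the photosystem I antenna gene LHCA4, XTH24 and the beta-xylosidase gene BXL1. The other 8 losses were those of GUN5, RBCS3B, the photorespiratory glycine decarboxylase gene GLDP1, GAPA-2, CAB3, CAB2, FBA2 and the methionine synthase gene ATMS1. Shares sum to a fixed total, so gains and losses are tied to each other. The 100 most abundant genes held 26.2%, 30.7% and 25.7% of the counts in shade, against 27.9%, 27.8% and 28.1% in white light.

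**Figure D2:**
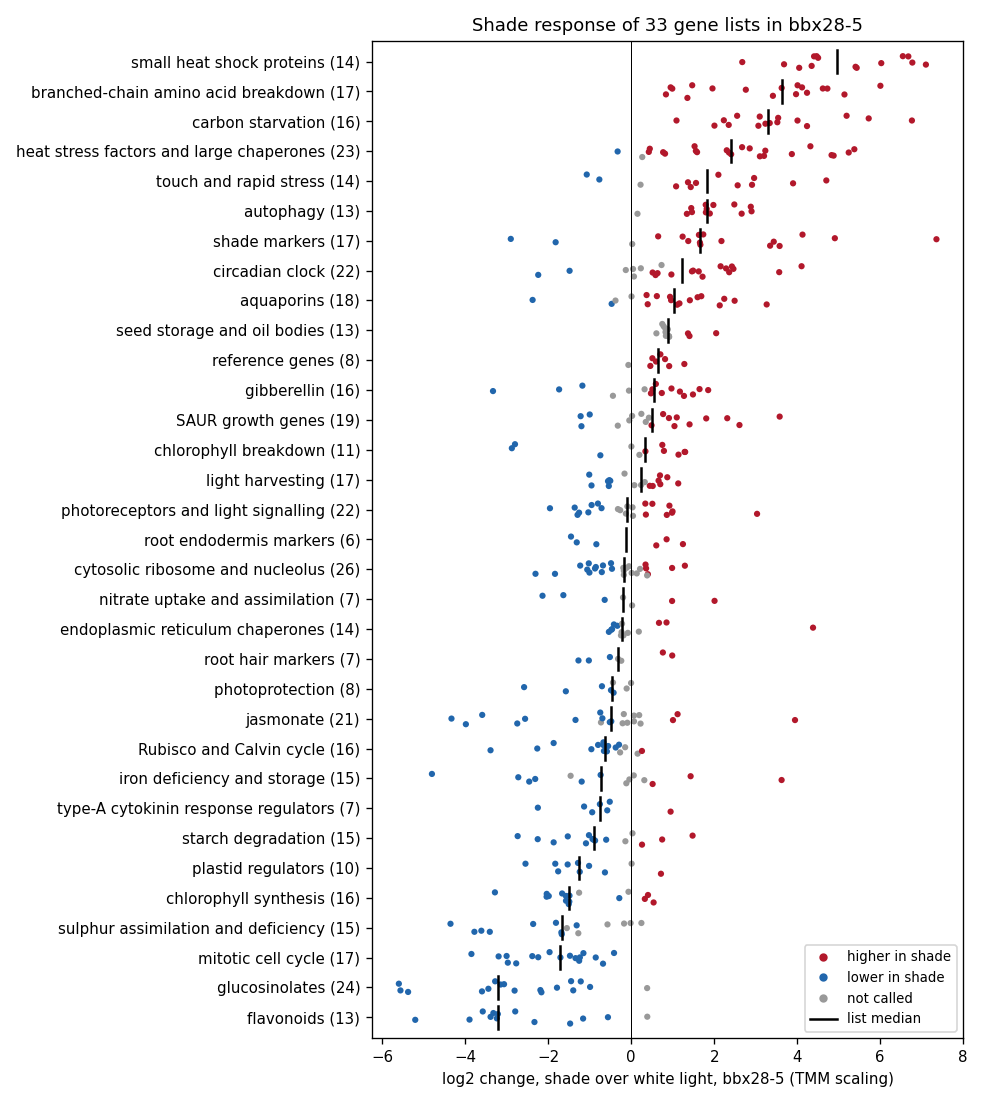
Log2 change (shade over white light in bbx28-5, TMM scaling) of each tested member of 33 gene lists, 1 row per list with the number of tested members in brackets. Red points were called higher in shade, blue points lower and grey points neither, black bars are list medians, and members without a count in 1 of the groups are not drawn. Medians run from 4.96 for small heat shock proteins to -3.22 for glucosinolate and flavonoid genes.

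Genes known to mark the shade response rose in bbx28-5. Of 17 shade markers 14 were higher in shade and 2 lower, with a median log2 change of 1.67 where all genes had 0.00, and 13 were higher with total counts. The homeodomain gene HB-2 (AT4G16780), long used as a marker of low red to far-red light, had 118, 163 and 115 CPM in shade, against 12.9, 11.3 and 12.3 CPM in white light (3.44 ± 0.14). HFR1 (AT1G02340), a bHLH protein that binds phytochrome-interacting factors and keeps them off DNA, had 222, 251 and 229 CPM in shade, against 23.6, 21.4 and 23.8 CPM in white light (3.35 ± 0.10). PAR1 (AT2G42870), another bHLH protein that restrains elongation, had 111, 184 and 109.6 CPM in shade, against 4.76, 4.24 and 4.39 CPM in white light (4.91 ± 0.22). In all 3 cases shade replicate 2 was the highest library and the groups did not overlap. PIL1 (AT2G46970), a bHLH gene known for its fast response to shade, was low but clear, at 12.7, 18 and 14.9 CPM in shade, against 1.09, 0.757 and 0.689 CPM in white light (4.13 ± 0.26). Auxin genes followed: the auxin synthesis gene YUC8 (a flavin monooxygenase) rose by 1.37 ± 0.16, and the auxin-induced repressor genes IAA19 and IAA29 by 1.67 ± 0.094 and 1.74 ± 0.14. FHL, which carries phytochrome A into the nucleus, rose by 3.58 ± 0.25, and the cytokinin oxidase gene CKX5 by 2.18 ± 0.24. The markers that fell were YUC9 (-1.82 ± 0.36) and PRE1, a small helix-loop-helix gene that promotes elongation, at 0.87, 1.39 and 1.11 CPM in shade, against 8.03, 9.54 and 7.66 CPM in white light. PKS4 did not pass the test (0.02 ± 0.17), and its shade and white light libraries overlapped.

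Photoreceptor and light signalling genes moved both ways, 8 higher and 8 lower of 22 with a median of -0.11, much as the transcriptome did. With total counts 5 were higher and 12 lower. PHYA (AT1G09570), the far-red receptor that accumulates in dim light, had 1414, 1038 and 1394 CPM in shade, against 159, 156 and 155 CPM in white light (3.03 ± 0.12). Each shade library was above every white light library by a wide margin, replicate 2 being the lowest of them. PHYB, the main receptor of the red to far-red ratio, did not pass (-0.13 ± 0.18), at 96.1, 50.7 and 91.7 CPM in shade, against 80.2, 90.5 and 90.5 CPM in white light, with shade replicate 2 alone low. The blue light receptor gene CRY2 rose by 0.92 ± 0.15 and the phototropin gene PHOT2 fell (-0.96 ± 0.088). Among the phytochrome-interacting factors PIF4 and PIL6 (also PIF5) rose by 1.00 ± 0.090 and 0.86 ± 0.080, whereas PIF7 fell, with 9.35, 7.85 and 9.78 CPM in shade, against 35.9, 35.5 and 33.9 CPM in white light (-1.96 ± 0.11). HY5 (AT5G11260) rose to 31.2 ± 2.39 CPM in shade, against 15.8 ± 0.705 CPM in white light (SD, n = 3 each), a change of 0.98 ± 0.10, while its close relative HYH fell (-1.26 ± 0.19). COP1, the ubiquitin ligase that removes HY5 in darkness, and its partners SPA1, SPA3 and SPA4 fell (-1.03 ± 0.12, -1.29 ± 0.16, -1.36 ± 0.17 and -0.72 ± 0.24). SPA2 did not pass (-0.09 ± 0.23). Shade replicate 2 was the lowest library for SPA1, SPA2, SPA3 and SPA4, and without it SPA4 had -0.40 and SPA2 0.20, which was then called higher. Phytochrome-interacting factors and HY5 bind the G-box CACGTG, which reads the same on both strands. It stood in the 250 bases before the start of 2 of the 17 shade markers and of 7.61% of all tested nuclear genes.

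Carbon starvation genes rose together. All 16 tested carbon starvation genes were higher in shade, with a median of 3.29 (2.94 with total counts, 3.27 without shade replicate 2). Their summed level was 23940.2, 24092 and 23746 CPM in shade, against 1422, 1279.6 and 1284 CPM in white light, and the 3 shade libraries lay close together. ASN1 had 8484, 5136 and 8781 CPM in shade, against 162, 128 and 134 CPM in white light (5.72 ± 0.22), with replicate 2 the lowest of the shade libraries. DIN10 (AT5G20250) had 4149, 3748 and 4149.8 CPM in shade, against 378, 334 and 337 CPM in white light (3.52 ± 0.14). GDH2 (AT5G07440), a glutamate dehydrogenase subunit that frees carbon from amino acids, had 1484, 2019.7 and 1496 CPM in shade, against 208, 197 and 178 CPM in white light (3.10 ± 0.14). Regulatory genes rose as well. AKINBETA1, a regulatory subunit of the energy-sensing SnRK1 kinase, rose by 4.01 ± 0.16, the sugar-repressed BTB gene BT2 by 3.54 ± 0.20, and the class II trehalose phosphate synthase genes TPS8, TPS9, TPS10 and TPS11 by 2.35, 2.01, 2.55 and 3.07. The growth-arrest markers DYL1 and AT2G33830 rose by 3.24 ± 0.13 and 3.34 ± 0.23. DIN11 was near the floor in white light, at 0.204, 0 and 0.344 CPM, and reached 7.07, 7.5 and 6 CPM in shade.

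The pathway that burns leucine, isoleucine and valine in mitochondria rose together. All 17 tested genes were higher, with a median of 3.63, and the list summed to 10162, 11743 and 9766 CPM in shade, against 667, 630.1 and 650.04 CPM in white light. DIN4, a subunit of the branched-chain keto acid dehydrogenase, belongs to this list and to that of carbon starvation. The first step is the mitochondrial aminotransferase of BCAT-2 (AT1G10070), which had 1593, 1764 and 1438 CPM in shade, against 25.7, 22.7 and 26.1 CPM in white light (6.01 ± 0.12, adjusted p = 3.89e-13). The dehydrogenase complex follows, and its subunit genes AT1G21400, DIN4, BCDH BETA1 and BCE2 rose by 4.62 ± 0.13, 4.24 ± 0.10, 3.97 ± 0.14 and 3.42 ± 0.13. Further down the leucine branch, IVD (isovaleryl-CoA dehydrogenase) rose by 4.01 ± 0.12. The methylcrotonyl-CoA carboxylase subunit gene MCCA (AT1G03090) had 1792, 2137 and 1894 CPM in shade, against 57.7, 51.3 and 56.1 CPM in white light (5.14 ± 0.13), and MCCB had 1776, 1872 and 1713 CPM in shade, against 67.3, 65.6 and 69.4 CPM in white light (4.73 ± 0.089). For MCCA and MCCB shade replicate 2 was the highest library, yet close to replicates 1 and 3. The electrons go to ubiquinone through the electron transfer flavoprotein and its oxidoreductase, and the oxidoreductase gene ETFQO rose by 3.63 ± 0.087, while the flavoprotein genes ETFALPHA and ETFBETA rose less, by 0.99 ± 0.13 and 1.96 ± 0.15. MGL, a methionine gamma-lyase that feeds isoleucine synthesis, rose by 4.12 ± 0.18.

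Of 13 autophagy genes 12 were higher in shade and none lower, with a median of 1.82. The ATG8 genes encode the ubiquitin-like protein that coats the autophagosome, and all 9 members rose, from 1.34 ± 0.20 for ATG8G to 2.90 ± 0.19 for ATG8F. ATG8F (AT4G16520) had 473, 893 and 509.6 CPM in shade, against 86.2, 77.9 and 87.1 CPM in white light, and ATG8E (AT2G45170) had 452, 589 and 509 CPM in shade, against 74.7, 66.6 and 68.9 CPM in white light. Shade replicate 2 was highest for 8 of the 9, ATG8C being the exception, and the change of ATG8F was 2.54 without it. Of the conjugation machinery and of cargo capture, APG5 rose by 1.82 ± 0.10, the cargo receptor gene NBR1 by 1.45 ± 0.088 and AtATG18a by 1.80 ± 0.094, whereas APG7, the activating enzyme, did not pass (0.15 ± 0.10).

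Starch breakdown genes mostly fell, 3 higher and 10 lower of 15 with a median of -0.91. The cytosolic glucan phosphorylase gene PHS2 (AT3G46970) had 16.5, 7.85 and 15.7 CPM in shade, against 83.9, 92.5 and 92.9 CPM in white light (-2.74 ± 0.19), and DPE2 (AT2G40840), which processes the maltose leaving the plastid, had 48.2, 42.4 and 46.3 CPM in shade, against 209, 226 and 219 CPM in white light (-2.25 ± 0.090). The starch phosphorylating enzyme gene SEX1 fell (-0.91 ± 0.17), and the main leaf beta-amylase gene CT-BMY fell (-1.87 ± 0.17). The rises were those of BAM1, a stress-responsive beta-amylase (1.48 ± 0.12), of BMY3 (0.75 ± 0.091) and of ISA3, whose small change of 0.26 ± 0.091 was -0.08 with total counts and was not called without white light replicate 2 or without shade replicate 1 or 3. Of 7 nitrogen assimilation genes 2 rose and 3 fell, and 2 and 5 did with total counts. The nitrate reductase gene NIA2 (AT1G37130) had 2304, 1960.4 and 2177 CPM in shade, against 1063, 1105 and 1087 CPM in white light (0.98 ± 0.10). The nitrite reductase gene NIR1, the next step, fell (-2.14 ± 0.13), as did the nitrate transporter gene NRT1.1 (-1.64 ± 0.13). The plastid glutamine synthetase gene GS2 did not pass, at 2833, 3227 and 2932 CPM in shade, against 2894, 2876 and 3096 CPM in white light, and was called lower with total counts (-0.32). GDH1 rose by 2.01 ± 0.17.

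**Figure D3:**
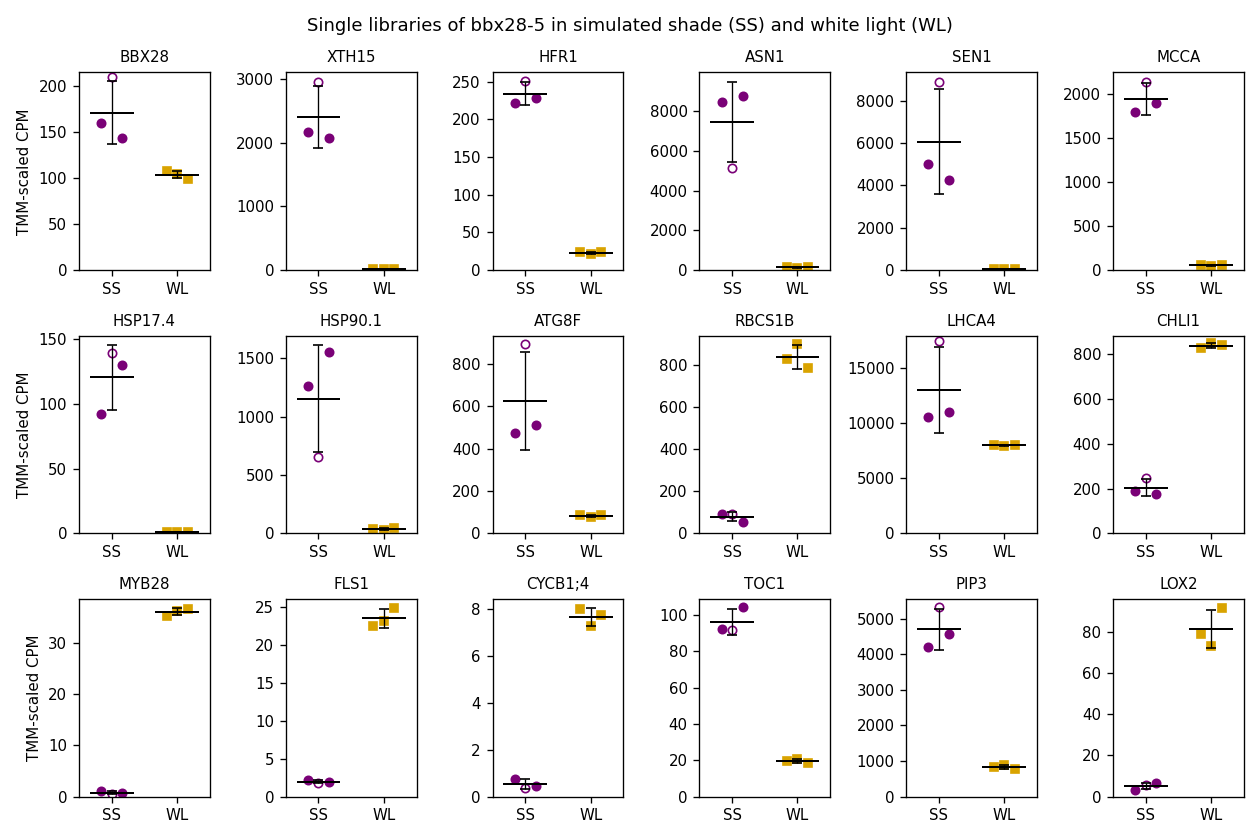
TMM-scaled CPM (vertical axes from 0) of 18 genes in the 3 shade (SS, circles) and 3 white light (WL, squares) libraries of bbx28-5, with the mean and SD of each group. Open circles are shade replicate 2. The 18 genes were picked by hand. Groups do not overlap for any of them, as for 68.1% of all tested genes. Replicate 2 lies apart from the other shade libraries for several genes. Among them are SEN1, ATG8F, LHCA4, XTH15, BBX28 and CHLI1 (above) and ASN1 and HSP90.1 (below).

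Heat shock genes rose in shade. The labels name no heat treatment and give no temperature during the exposure. All 14 tested small heat shock protein genes, which encode chaperones that hold unfolded proteins, were higher, with a median of 4.96, and the list summed to 1765, 2262 and 2961 CPM in shade, against 58, 47.5 and 61.2 CPM in white light. HSP17.4 (AT3G46230) had 92.2, 139 and 130.04 CPM in shade, against 0.953, 1.36 and 1.21 CPM in white light (6.68 ± 0.37). HSP17.6A (AT5G12030) had 399, 654 and 656 CPM in shade, against 6.67, 3.48 and 8.18 CPM in white light (6.55 ± 0.49), and the mitochondrial HSP23.6-MITO (AT4G25200) had 112, 119 and 161 CPM in shade, against 0.681, 0.682 and 1.55 CPM in white light (7.10 ± 0.25). All shade libraries were far above all white light libraries, and replicate 3 was the highest of the shade group for 12 of the 14 genes. The most uneven was HSP18.2, at 21.2, 10.6 and 70.2 CPM in shade, against 6.19, 5.53 and 4.3 CPM in white light (2.68 ± 0.53).

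Of 23 heat stress factors and large chaperones 21 were higher and 1 lower, with a median of 2.41 and 18 higher with total counts. HSP90.1 (AT5G52640), the heat-inducible cytosolic HSP90, had 1258, 649.9 and 1553 CPM in shade, against 38.7, 31.4 and 47.7 CPM in white light (4.88 ± 0.28). HSP70 (AT3G12580), a cytosolic HSP70, had 1707, 1172 and 1795 CPM in shade, against 94.2, 106 and 119 CPM in white light (3.87 ± 0.16), and HSP101, which pulls proteins out of aggregates, had 180.1, 84.5 and 188 CPM in shade, against 15.8, 12.7 and 19.8 CPM in white light (3.23 ± 0.25). Shade replicate 2 was the lowest shade library for all 3 of these genes, but it stayed far above white light. The coactivator gene MBF1C (AT3G24500) had 542, 558 and 795 CPM in shade, against 15.4, 12.3 and 17.9 CPM in white light (5.38 ± 0.20), and HSA32, needed for lasting heat tolerance, had 344, 305 and 529 CPM in shade, against 9.8, 11.3 and 9.98 CPM in white light (5.24 ± 0.22). Among the transcription factors themselves the inducible ones rose, HSFA2 by 4.32 ± 0.44, HSFA3 by 2.86 ± 0.15, HSFB2A by 2.41 ± 0.12 and DREB2A by 2.30 ± 0.11. The constitutive master factors moved little: HSF1 did not pass (0.27 ± 0.14), HSFA1D rose by 0.42 ± 0.15 and HSF3 by 0.45 ± 0.15, and with total counts these changes were -0.07, 0.08 and 0.11, none of them called. Leaving out white light replicate 1 ended the calls of HSFA1D and HSF3, and so did leaving out white light replicate 3 or shade replicate 2 for HSFA1D (0.28 without shade replicate 2) and shade replicate 1 or 3 for HSF3. CLPB3, the plastid relative of HSP101, was the member that fell (-0.33 ± 0.11, not called without white light replicate 3), while the mitochondrial CLPB4 rose by 2.67 ± 0.17.

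Chaperones of the endoplasmic reticulum, which answer to a different stress pathway, moved both ways. Of 14 tested 3 rose and 5 fell, with a median of -0.23, and 9 were lower with total counts. The luminal HSP70 genes BIP1 and BIP2 had -0.25 ± 0.16 (not called) and -0.46 ± 0.11, and both were lower with total counts. The largest rise was that of TIN1, a tunicamycin-induced gene, at 125, 136 and 161 CPM in shade, against 8.24, 6.36 and 5.51 CPM in white light (4.38 ± 0.21).

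Heat stress factors bind inverted repeats of nGAAn, and the 250 bases before the annotated start of each gene were searched for GAA, any 2 bases, TTC, any 2 bases and GAA in a row, on both strands. This strict form stood in 83 of 19620 promoters of tested nuclear genes (0.423%), in 2 of 14 small heat shock genes and in 3 of 23 heat stress factor and chaperone genes. A match is a description and not a binding site, and promoters without one may hold looser forms. Parts of the promoters of HSP17.4 (chr3:16984868-16984986, minus strand, which holds 2 matches) and of HSFA2 (chr2:11135516-11135568, plus strand) are shown because they carry the element beside large responses. All sequences here are from the RefSeq assembly TAIR10.1, run 5′ to 3′ on the gene's strand, and have the motif in capitals.
HSP17.4: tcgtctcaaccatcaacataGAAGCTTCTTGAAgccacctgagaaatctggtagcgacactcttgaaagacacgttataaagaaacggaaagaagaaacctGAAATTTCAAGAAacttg
HSFA2: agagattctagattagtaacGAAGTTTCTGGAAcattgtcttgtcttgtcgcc

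Light harvesting proteins bind chlorophyll around the photosystems, and of 17 tested genes 7 were higher and 6 lower, with a median of 0.24. That balance depended on library and scaling: the median was -0.09 without shade replicate 2, and 4 were higher and 8 lower with total counts. All 4 photosystem I antenna genes rose and kept a positive change with total counts and without replicate 2. LHCA4 (AT3G47470) had 10549, 17449 and 10979.8 CPM in shade, against 8026, 7944 and 8017 CPM in white light (0.70 ± 0.15), 0.34 with total counts and 0.41 without replicate 2. LHCA1 (AT3G54890) had 9263, 8012 and 8652 CPM in shade, against 6216, 6171 and 6633 CPM in white light (0.45 ± 0.090), but 0.11 with total counts, which was not called. In photosystem II the minor antenna genes LHCB4.1 and LHCB4.2 rose by 0.52 ± 0.15 and 0.69 ± 0.16 (0.16 for LHCB4.1 with total counts, not called), and LHCB4.3 fell (-0.96 ± 0.12). The 3 LHCB2 genes fell, LHCB2.3 most (-1.01 ± 0.17). CAB1, CAB2 and CAB3 are near-identical neighbours between which reads may be shared, and CAB2 and CAB3 had -0.56 ± 0.17 and -0.54 ± 0.17 and CAB1 0.07 ± 0.14 (not called), so these values are uncertain, and with total counts all 3 were lower, while CAB3 was not called without shade replicate 1. LHB1B1, which also has a near-identical neighbour, had 4092, 2904 and 3319 CPM in shade, against 1599, 1559 and 1546 CPM in white light (1.13 ± 0.13). Shade replicate 2 summed to 103525 CPM over the list, against 72787 and 68565 CPM in shade replicates 1 and 3, and the white light libraries summed to 66251, 65658 and 66896 CPM.

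Most carbon fixation genes fell. Of 16 Rubisco and Calvin cycle genes 12 were lower and 1 higher, with a median of -0.62, and 14 were lower and none higher with total counts. Without shade replicate 2, 15 were lower and 1 higher. RCA (AT2G39730), the chaperone that reactivates Rubisco, had 8356, 9816 and 8424 CPM in shade, against 13075, 13388 and 13479.5 CPM in white light (-0.59 ± 0.094). RBCS1B (AT5G38430), 1 of 4 Rubisco small subunit genes, fell most, to 91, 93.8 and 55.2 CPM in shade, against 830.2, 898 and 788 CPM in white light (-3.39 ± 0.19). RBCS1A (AT1G67090) had 7386, 9888 and 7174 CPM in shade, against 15865, 15907 and 15819.6 CPM in white light (-0.96 ± 0.12), while RBCS2B and RBCS3B did not pass (0.15 ± 0.18 and -0.27 ± 0.14). Without shade replicate 2 both were called lower (-0.21 and -0.50). The 4 small subunit genes are closely related, so counts may be shared among them. CP12-2, which ties enzymes of the cycle together in darkness, fell (-2.27 ± 0.18), and so did the transketolase gene AT3G60750 (-1.87 ± 0.10). GAPA was the member that rose (0.26 ± 0.088), and its change was -0.08 with total counts and was not called without white light replicate 1 or without shade replicate 1 or 3.

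Most chlorophyll synthesis genes fell. Of 16 genes 11 were lower and 3 higher, with a median of -1.50, and with total counts 12 were lower and none higher. HEMA1, the enzyme that commits glutamate to tetrapyrroles, had 239, 190.1 and 240.2 CPM in shade, against 653, 687 and 657 CPM in white light (-1.57 ± 0.10). The magnesium chelatase subunit gene GUN5 (AT5G13630) had 1053, 618 and 997 CPM in shade, against 3302, 3723 and 3564 CPM in white light (-1.99 ± 0.16). The subunit gene CHLI1 (AT4G18480) had 188, 249 and 175 CPM in shade, against 825, 847 and 839 CPM in white light (-2.04 ± 0.12), whereas the subunit gene ALB1 did not pass (-0.07 ± 0.10, and -0.40 with total counts, called lower). Replicate 2 was the lowest shade library for GUN5 and the highest for CHLI1. The divinyl reductase gene PCB2 fell most (-3.29 ± 0.22). Of the light-dependent protochlorophyllide reductases POR C fell (-2.04 ± 0.12) and PORB rose by 0.33 ± 0.087, which was -0.02 with total counts. Chlorophyll breakdown genes were 6 higher and 3 lower of 11. NYC1 and HCAR, which convert chlorophyll b, rose by 1.14 ± 0.083 and 1.29 ± 0.11, and the chlorophyllase gene CLH1 fell (-2.88 ± 0.12). Of 10 plastid regulators 8 fell and 1 rose. GPRI1 (also GLK1), a factor that switches on photosynthesis genes, had 15, 19.5 and 9.69 CPM in shade, against 84.7, 87 and 85.1 CPM in white light (-2.55 ± 0.19), GLK2 fell (-1.28 ± 0.13), and the plastid sigma factor genes SIGE and SIGA fell (-1.83 ± 0.12 and -1.53 ± 0.10) where SIG4 rose by 0.72 ± 0.10. Of 8 photoprotection genes 5 fell and none rose, with all 8 lower with total counts and 7 lower without shade replicate 2. Those that fell included ABA1, zeaxanthin epoxidase (-1.58 ± 0.095), ELIP2 (-2.58 ± 0.19) and NPQ4, the sensor of energy dissipation (-0.71 ± 0.12).

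Flavonoid pigments screen strong light. Of 13 tested flavonoid genes 12 were lower and none higher, with a median of -3.22. The entry enzyme chalcone synthase, TT4, fell least, with 57.3, 57.4 and 62.2 CPM in shade, against 83.2, 88.5 and 89.5 CPM in white light (-0.56 ± 0.13), and genes of the following steps had larger changes. The chalcone isomerase gene TT5 had -2.80 ± 0.19, its helper CHIL -3.39 ± 0.16, and FLS1 (AT5G08640), flavonol synthase, had 2.18, 1.73 and 1.94 CPM in shade, against 22.4, 23.1 and 24.9 CPM in white light (-3.58 ± 0.17). Late anthocyanin genes had few counts. DFR had 1 count in shade and 65 in white light, a ratio of 47.2 in favour of white light with an exact binomial 95% interval of 8.18 to 1893, and the regulator gene PAP1 had 3 and 42 counts, a ratio of 10.2 (3.25 to 51.3). MYB12, which activates flavonol genes, did not pass (0.39 ± 0.20).

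Glucosinolates are the sulphur-rich defence compounds of the cabbage family, and nearly all of their synthesis genes fell in bbx28-5. Of 24 tested genes 22 were lower and none higher, with a median of -3.22, or -2.94 when the 7 genes without a count in shade were set to their bound. The bound of CYP79F1, with 2 counts in white light, was 0.484-fold, which tells nothing but entered that median as a rise. Those of FMO GS-OX1 and BCAT4 were at least 2.90-fold and 4.12-fold lower. Genes of the methionine-derived branch had the largest changes. MYB29, a second activator beside MYB28, had no count in the 3 shade libraries and 77 in the white light libraries, so that it was at least 18.6-fold lower in shade against a floor of 3 counts over the group. In the same way IPMI1, a side-chain elongation enzyme, was at least 21.3-fold lower, the core oxidase gene CYP83A1 at least 14.8-fold and CYP79F2, which opens the branch, at least 13.6-fold. IMD1 had 0.435, 0.231 and 0 CPM in shade, against 10.01, 8.94 and 8.35 CPM in white light (-5.38 ± 0.47). CYP79F2, CYP83A1 and IPMI1 had few counts in white light as well, with 56, 61 and 88 over the 3 libraries. Loss of detection therefore also depends on the starting level. The tryptophan-derived branch fell too but stayed detectable, and its enzyme genes given here were higher in white light. CYP79B2, its first enzyme, had 5.11, 2.42 and 3.69 CPM in shade, against 49.4, 41.4 and 46.1 CPM in white light (-3.60 ± 0.18), and CYP83B1 (AT4G31500) had 8.81, 15 and 9.78 CPM in shade, against 98.2, 89.4 and 92.7 CPM in white light (-3.07 ± 0.16). Its activators differed: MYB34 fell (-2.19 ± 0.13) and MYB51 did not pass (0.38 ± 0.18) but was called higher without shade replicate 2 (0.55). Steps shared by both branches fell, SUR1 with -1.40 ± 0.11, UGT74B1 with -1.45 ± 0.17 and SOT16 with -1.22 ± 0.14.

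Genes of sulphate assimilation, which supplies the sulphur of these compounds, fell as well. Of 15 tested genes 9 were lower and none higher, with a median of -1.67, and 1 was higher without shade replicate 2. With total counts 11 were lower. The 3 genes of its key enzyme, adenosine phosphosulphate reductase, all fell, APR1 with 2.94, 2.89 and 3.97 CPM in shade, against 43.2, 46.9 and 46.3 CPM in white light (-3.78 ± 0.15), APR2 with -4.36 ± 0.25 and APR3 with -3.41 ± 0.14. The root sulphate transporter gene SULTR1;2 did not pass (-0.02 ± 0.13, and -0.36 with total counts, called lower). Jasmonate genes were 3 higher and 10 lower of 21, and 3 and 14 with total counts. Synthesis genes fell, with LOX2 (AT3G45140), the plastid lipoxygenase, at 3.37, 5.54 and 6.37 CPM in shade, against 79.2, 73.5 and 91.8 CPM in white light (-3.99 ± 0.20). The next enzymes followed, AOS with -2.75 ± 0.13, AOC1 with -4.33 ± 0.30 and AOC2 with -3.59 ± 0.21. Among the JAZ repressor genes, which usually follow the hormone, JAZ7 and JAZ10 rose by 3.95 ± 0.49 and 1.12 ± 0.23, JAZ12 rose by 1.01 ± 0.092, TIFY7 fell (-0.52 ± 0.13) and the other tested JAZ genes did not pass. In iron metabolism 3 of 15 genes were higher and 7 lower, and 2 and 9 with total counts. The iron store gene FER1 (AT5G01600) had 1667, 1887 and 1660.3 CPM in shade, against 135, 144 and 144 CPM in white light (3.63 ± 0.12), and FER4 rose by 1.43 ± 0.12, while FER3 did not pass (-0.05 ± 0.091, and -0.39 with total counts, called lower). The uptake gene IRT1 had no count in shade and 72 in white light, which makes it at least 17.4-fold lower, and the iron deficiency regulator gene bHLH38 fell (-2.46 ± 0.34).

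Every mitotic gene tested fell in shade. All 17 were lower, with a median of -1.71, and the summed level was 59.7, 65.8 and 49.5 CPM in shade, against 172, 159.7 and 161 CPM in white light, without overlap. The B-type cyclin gene CYCB1;4 (AT2G26760) had 0.761, 0.346 and 0.461 CPM in shade, against 8.03, 7.27 and 7.75 CPM in white light (-3.85 ± 0.23), and CYCB1;3 had 0.653, 0.693 and 0.738 CPM in shade, against 5.65, 5.98 and 5.34 CPM in white light (-3.01 ± 0.21). The mitotic kinase genes CDKB1;2 and CDKB2;1 fell (-2.77 ± 0.36 and -1.48 ± 0.15), as did the anaphase activator gene CDC20.1 (-1.71 ± 0.13) and the G1 cyclin gene CYCD3;1 (-1.26 ± 0.10). CDKB2;2 and CYCB2;3 had the smallest changes (-0.41 ± 0.13 and -0.68 ± 0.25), and CYCB2;3 was not called without white light replicate 1 or 2 or without shade replicate 3.

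Many plant mitotic genes carry the mitosis-specific activator element, read by MYB factors with 3 repeats, whose core is AACGG. The core stood in 11 of the 17 promoters of 250 bases, or 64.7%, and in 21.9% of the promoters of all tested nuclear genes, counted on both strands (the reverse complement is CCGTT). The promoter parts of CYCB1;3 (chr3:3627274-3627357, minus strand) and CYCB2;2 (chr4:16901404-16901518, plus strand), each with 3 cores, are shown because in these cyclin genes, both lower in shade, the cores lie close together.
CYCB1;3: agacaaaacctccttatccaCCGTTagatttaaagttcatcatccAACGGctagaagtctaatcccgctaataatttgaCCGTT
CYCB2;2: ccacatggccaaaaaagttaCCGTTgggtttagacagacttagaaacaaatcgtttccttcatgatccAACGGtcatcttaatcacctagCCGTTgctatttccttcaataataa

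Ribosome and nucleolus genes were 5 higher and 12 lower of 26, with a median of -0.18, and this list moved with library and scaling, to 3 and 16 without shade replicate 2 and to 2 and 18 with total counts. The nucleolar genes FIB2 and NOP56, which modify ribosomal RNA, fell in each setting (-2.31 ± 0.17 and -1.84 ± 0.11). The ribosomal protein gene RPS6 fell to 111, 164 and 108 CPM in shade, against 268, 269 and 263 CPM in white light (-1.06 ± 0.13), replicate 2 being the highest shade library. RPS18C had 193, 395 and 198 CPM in shade, against 132, 128 and 137 CPM in white light, a rise of 0.99 ± 0.20 of which 0.55 remained without that library.

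Most aquaporin genes rose. Of 18 aquaporin genes, whose products let water across membranes, 14 were higher and 2 lower, with a median of 1.03, and 12 and 4 with total counts. PIP3 (AT4G35100) had 4198, 5335 and 4571 CPM in shade, against 843, 894 and 769 CPM in white light (2.49 ± 0.11), and RD28 (AT2G37180), a drought-responsive plasma membrane aquaporin, had 515, 721 and 563 CPM in shade, against 62.6, 63.7 and 60.8 CPM in white light (3.26 ± 0.13). PIP1B and PIP1C rose by 1.60 ± 0.13 and 2.13 ± 0.092, and the vacuolar DELTA-TIP by 1.16 ± 0.12. PIP2;8 was the member that fell most (-2.38 ± 0.19). SAUR genes, small auxin-induced growth genes, were 10 higher and 3 lower of 19 with a median of 0.49, and 8 and 5 with a median of 0.14 with total counts. Clusters of near-identical SAUR genes may share reads, so single members are uncertain. SAUR19 had 11, 21.4 and 12.2 CPM in shade, against 2.18, 2.42 and 2.67 CPM in white light (2.61 ± 0.26) and SAUR22 21.1, 34.5 and 22.5 CPM in shade, against 6.26, 4.54 and 4.73 CPM in white light (2.31 ± 0.20), with replicate 2 the highest library for both. Of 16 gibberellin genes 10 rose and 3 fell, and 8 and 4 did with total counts. The synthesis gene GA20OX2 rose by 1.49 ± 0.15 and the breakdown gene GA2OX6 by 1.85 ± 0.12. The DELLA repressor genes GAI and RGA1 rose by 1.65 ± 0.10 and 0.59 ± 0.095 and the receptor gene GID1A by 1.17 ± 0.18. Of 7 type-A cytokinin response regulators 6 fell and 1 rose, led by ARR7 at 0.326, 2.19 and 0.831 CPM in shade, against 5.38, 4.85 and 5.42 CPM in white light (-2.25 ± 0.38). The 1 that rose, RR16, was high in shade replicate 2 alone (3.7, 9 and 2.86 CPM in shade, against 2.93, 2.2 and 2.75 CPM in white light), and its change of 0.95 was 0.29 without it, 0.59 with total counts, and was not called in either setting or without white light replicate 2 or 3.

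The circadian clock list had 15 genes higher and 2 lower of 22, with a median of 1.22. These numbers were 13 and 2 with total counts, and 17 and 2 without shade replicate 2. Of the morning genes CCA1 rose by 0.63 ± 0.10 and its partner LHY fell, with 5.66, 4.73 and 4.15 CPM in shade, against 21.4, 24.5 and 22.7 CPM in white light (-2.24 ± 0.14). EPR1, a related MYB gene, had 375, 463 and 389.9 CPM in shade, against 24.2, 24.7 and 22.3 CPM in white light (4.11 ± 0.12), and PRR7 (AT5G02810) had 931, 656 and 933 CPM in shade, against 184, 183 and 199 CPM in white light (2.15 ± 0.13), while PRR9 did not pass (0.07 ± 0.21) but was called higher without shade replicate 2 (0.33). RVE8, another relative, fell (-1.49 ± 0.17). Evening genes rose. TOC1 (AT5G61380) had 92.5, 91.8 and 105 CPM in shade, against 19.7, 20.9 and 18.6 CPM in white light (2.29 ± 0.10), PRR5 rose by 2.43 ± 0.16, and the evening complex genes PCL1 (also LUX), ELF3 and ELF4 by 2.46 ± 0.14, 1.46 ± 0.12 and 1.63 ± 0.35. All 3 libraries of each light lay close together for TOC1. Per the labels both groups were taken after the same 4 h.

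Evening genes are known for the evening element AAAATATCT, which CCA1 and LHY bind. It stood in 6 of the 22 clock promoters (27.3%) and in 2.47% of the promoters of all tested nuclear genes, counting both strands (reverse complement AGATATTTT). The parts around it in TOC1 (chr5:24674792-24674840, plus strand), PRR5 (chr5:8358705-8358753, minus strand) and PCL1 (chr3:17182969-17183017, plus strand) are shown because these are the evening genes described above that carry it. ELF3 and ELF4 had no match in this stretch, whereas EPR1, described with the morning genes, had a match.
TOC1: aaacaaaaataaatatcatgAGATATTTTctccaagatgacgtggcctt
PRR5: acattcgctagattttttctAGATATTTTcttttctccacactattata
PCL1: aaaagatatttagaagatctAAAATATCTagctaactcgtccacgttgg

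Genes of touch and rapid stress rose, 11 higher and 2 lower of 14 with a median of 1.83, and 1 was lower without shade replicate 2. The wall enzyme gene TCH4 (AT5G57560), induced by touch and by growth hormones, had 949, 1422 and 1259 CPM in shade, against 50.8, 49.1 and 39.3 CPM in white light (4.70 ± 0.19), and the calmodulin-like gene TCH3 had 221, 197 and 218 CPM in shade, against 14.4, 13 and 15.2 CPM in white light (3.90 ± 0.12). TCH2 of the same response did not pass (0.22 ± 0.10), although without shade replicate 2 the same change of 0.22 did. The defence and stress regulator genes WRKY40, ERF104 and STZ rose by 2.91 ± 0.22, 2.57 ± 0.12 and 2.10 ± 0.23. The cold regulator gene CBF1 had 34 counts in shade and none in white light, and was at least 15.6-fold higher.

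Markers of tissues were examined because a different make-up of the sampled seedlings could move them together. Root hair markers (7 of 7 tested) were 2 higher and 3 lower and summed to 84.4, 103 and 87.9 CPM in shade, against 121, 105 and 96.5 CPM in white light, ranges that overlap. EXPA7 rose by 0.99 ± 0.21 and LRX1 fell (-1.27 ± 0.25). Of the endodermis markers 6 of 7 were tested, 3 higher and 3 lower, with sums of 87.8, 99 and 88.5 CPM in shade, against 70.7, 66.2 and 66.3 CPM in white light. The Casparian strip genes CASP1 and CASP2 rose by 0.85 ± 0.12 and 1.25 ± 0.16, and the suberin genes CYP86A1 and GPAT5 fell (-1.45 ± 0.22 and -1.31 ± 0.25). Seed storage and oil body genes (13 of 13 tested) had 3 higher and none lower and summed to 984, 388 and 192 CPM in shade, against 301, 199.97 and 349 CPM in white light. Shade replicate 1 alone was high, for instance with 326, 101 and 58.6 CPM of CRU3 in shade, against 105, 55.1 and 114 CPM in white light, and 8 members were called higher without replicate 2. Their part in the results above was not tested. Genes often used as references were not level. Of 8, 7 were higher and none lower, with a median of 0.65 under TMM, and 5 and 1 with total counts. ACT2 had 1435, 1411 and 1316 CPM in shade, against 725, 795 and 687 CPM in white light (0.91 ± 0.088), UBQ10 rose by 0.46 ± 0.085, 0.11 with total counts (not called), and the clathrin adaptor gene AT5G46630 did not pass (-0.07 ± 0.14, and -0.40 with total counts, where it was the member called lower).

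Shade replicate 2 differed from its group by transcript length. Of the 2151 genes at least 2-fold from the mean of shade replicates 1 and 3, 840 were higher and 1311 lower in replicate 2. In shade replicates 1 and 3, which had replicate 2 in their reference, 742 and 726 genes deviated. In each of the remaining libraries of the series 129 to 269 genes did. The deviation fell with length: across 19621 genes, Pearson's r with log2 transcript length was -0.478 and Spearman's rho -0.538, as a description over genes that share 1 library. The median deviation was 0.56 log2 for the 2451 genes with transcripts over 500 and up to 1000 bases, 0.09 for the 4970 genes over 1500 and up to 2000 bases and -0.78 for the 766 genes over 4000 bases. In the bbx28-5 white light libraries Pearson's r lay between -0.0866 and 0.0615. The 10 genes highest in replicate 2 included the ribosomal protein L41 gene AT2G40205, at 1.85, 6.35 and 1.48 CPM in the shade replicates, the arabinogalactan protein gene AGP26, at 1.31, 8.89 and 2.68 CPM, the PDZ protease gene DEG14, at 23.6, 87.4 and 27.7 CPM, and 2 chloroplast loci. The 10 lowest included 2 genes of pentatricopeptide repeat proteins, AT1G19720 with 61.9, 7.39 and 76 CPM and AT1G13040 with 3.48, 0.231 and 3.14 CPM, and the DNA repair gene UVH3 with 18.5, 2.31 and 22.9 CPM. Of these 6, DEG14 alone was called for shade (log2 change 1.52 ± 0.38, 0.67 without replicate 2). Without replicate 2, AGP26 (-1.38) and AT1G19720 (-0.29) were called lower.

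Leaving out this library moved the change by length class. With all 3 shade libraries the median log2 change was 0.39 for transcripts up to 500 bases (231 genes), 0.19 for those over 500 and up to 1000 bases, -0.03 for those over 1500 and up to 2000 bases and -0.11 for those over 4000 bases. Without replicate 2 the medians in the same classes were 0.08, -0.07, -0.08 and 0.11. Calls grew in number when the library was left out, to 14499 genes, 7169 higher and 7330 lower (72.7%, 36% and 36.8% of 19931 tested). Of the 13308 original calls 12686 (95.3%) were made again in the same direction, none was reversed and 622 were lost, and 1813 genes were called only then. Several lists above gave the same counts without it: carbon starvation, branched-chain amino acid breakdown, small heat shock, autophagy and mitotic genes had as many higher and lower members with and without replicate 2. Other lists depended on it, as given above for ribosomal protein, light harvesting and seed storage genes. Of 90 tested genes encoded in the organelles, 39 were higher and 4 lower with all libraries, 28 and 4 without replicate 2, and 23 and 8 with total counts. Over all tested genes 34.4% were higher and 33.1% lower with all libraries, and 23.6% and 45.9% with total counts. Of all 285 organelle-encoded genes 134 had no count in bbx28-5.

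**Figure D4:**
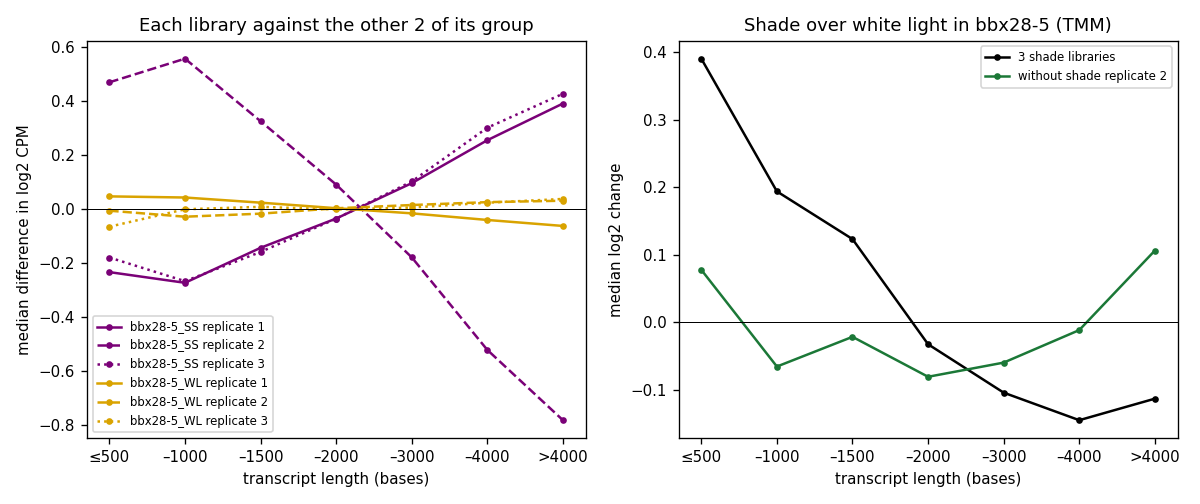
Left, median difference in log2 CPM between each bbx28-5 library and the mean of the other 2 of its group, by transcript length class in bases. Shade replicate 2 (dashed, purple) runs from 0.47 to -0.78, its group mates mirror it because it is in their reference, and the white light libraries stay near 0. Right, median log2 change between shade and white light by length class, with all 3 shade libraries (from 0.39 to -0.11) and without shade replicate 2 (0.08 to 0.11).

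The scaling moved the balance of rises and falls more than the number of calls. With total counts 13687 genes were called (69.4%), close to the number with TMM, but 4644 were higher (23.6%) and 9043 lower (45.9%), so that 33.9% of the calls were rises, against 51.0% with TMM. The overlap was 11166 genes called in the same direction, which is 83.9% of the TMM calls and 81.6% of the total count calls, and none was called in opposite directions. DESeq2's size factors gave 6611 higher and 6744 lower, near to TMM. No spike-in or cell count is in the labels, so whether the bulk of transcripts stayed level per seedling or fell was not tested. Small rises, such as that of UBQ10, should be read as relative to that choice. Of the 8 reference genes 5 were still called higher and 1 lower with total counts.

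To ask where the response of bbx28-5 departed from that of Col-0, the difference of the 2 shade changes was tested for each gene (interaction, the log2 change in bbx28-5 minus that in Col-0). It passed for 2032 genes, 10.3% of those tested. The change was more positive in bbx28-5 for 6.52% (1285) and more negative for 3.79% (747). This split depended on scaling, since with total counts 3120 genes passed (15.8%), 479 with a more positive (2.43%) and 2641 with a more negative change (13.4%) in bbx28-5, and the median interaction was 0.05 with TMM and -0.25 with total counts. Without shade replicate 2 it passed for 4545 genes (22.8%), 3110 more positive (15.6%) and 1435 more negative (7.2%). It passed for 2724 genes without shade replicate 1 and for 2631 without shade replicate 3 of bbx28-5. Leaving out any 1 of the bbx28-5 white light or Col-0 libraries left 1130 to 1413 genes.

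Heat shock genes rose further in bbx28-5 than in Col-0. The interaction passed for 9 of 14 small heat shock genes, all more positive in bbx28-5, 8 with total counts and 10 without shade replicate 2, and the list median was 4.96 in bbx28-5 and 3.04 in Col-0. It passed for 14 of 23 heat stress factors and large chaperones, all more positive, with total counts for 9 more positive and 1 more negative, and without shade replicate 2 for 18, all more positive. HSP21 (AT4G27670), the plastid small heat shock protein, had 22.6, 23.8 and 27.2 CPM in bbx28-5 shade, against 0.749, 0.909 and 1.89 CPM in bbx28-5 white light, and 1.73, 0.398 and 0.855 CPM in Col-0 shade, against 0.337, 0.768 and 0.466 CPM in Col-0 white light. Its interaction was 3.43 ± 0.69 (SE, adjusted p = 0.008). HSP17.4 had 21.6, 15.6 and 14.5 CPM in Col-0 shade, against 0.337, 0.537 and 2.26 CPM in Col-0 white light, and an interaction of 2.68 ± 0.64. For HSP18.2 the interaction of 3.37 ± 0.79 set a rise in bbx28-5 against 5.67, 2.39 and 3.42 CPM in Col-0 shade and 4.92, 5.91 and 7.92 CPM in Col-0 white light. Interactions of the larger chaperones were 1.57 ± 0.35 for HSP90.1, 1.73 ± 0.21 for HSP70, 1.81 ± 0.28 for HSA32 and 1.54 ± 0.25 for MBF1C.

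Other groups differed in parts. In bbx28-5 the change was more positive for 7 of 18 aquaporin genes, among them RD28 (interaction 1.55 ± 0.17) and PIP3 (0.91 ± 0.15), for 6 of 17 branched-chain amino acid genes, among them BCDH BETA1 (1.13 ± 0.19) and MCCB (0.73 ± 0.11), for 6 of 13 autophagy genes, among them ATG8H (1.35 ± 0.28), and for 6 of 16 Rubisco and Calvin cycle genes, among them RCA (0.85 ± 0.13) and FBA1 (1.24 ± 0.12). With total counts these numbers were 5, 3, 2 and 5, with 1 gene more negative in each list but autophagy, and without shade replicate 2 they were 13, 7, 8 and 11, with 1 branched-chain amino acid gene more negative. The change was more negative for 7 of 17 mitotic genes, led by CYCB1;4 (-1.95 ± 0.30) and CYCB2;1 (-1.67 ± 0.45), and for 3 of 7 nitrogen genes. With total counts it was more negative for 11 mitotic and 3 nitrogen genes, and without shade replicate 2 for 9 mitotic and 4 nitrogen genes, where 2 nitrogen genes were more positive. NIA1 (AT1G77760), a nitrate reductase gene, had 456, 318 and 324 CPM in bbx28-5 shade, against 407, 408 and 443 CPM in bbx28-5 white light, and 903, 1137 and 1073 CPM in Col-0 shade, against 229.8, 265 and 224 CPM in Col-0 white light (interaction -2.31 ± 0.20). It rose in Col-0 and was not called in bbx28-5 (-0.20 ± 0.14), where it was called lower with total counts (-0.53) or without shade replicate 1. Carbon starvation genes differed for 2 more positive and 1 more negative of 16, for 1 and 4 with total counts and for 4 and 3 without shade replicate 2. Of the shade markers PAR1 (1.24 ± 0.28), FHL (1.47 ± 0.37), HFR1 (0.64 ± 0.13) and the homeodomain gene HAT2 (0.89 ± 0.16) were more positive and YUC9 (-1.59 ± 0.46) and IAA19 (-0.46 ± 0.13) more negative. The other 11 of 17 did not pass. The interaction of HFR1 was not called with total counts (0.35), and that of YUC9 was not called in 9 of the 12 fits that leave out 1 library, shade replicate 2 among them (-1.27).

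The largest interactions were mostly at genes with low levels. UBC12 (AT3G08700), a ubiquitin-conjugating enzyme gene, had 12.5, 16.9 and 11.5 CPM in bbx28-5 shade, against 3.27, 2.95 and 2.24 CPM in bbx28-5 white light, and 0.133, 0.239 and 0.0712 CPM in Col-0 shade, against 0.27, 0.307 and 0.466 CPM in Col-0 white light, close to the floor of 3 counts in Col-0 (interaction 3.47 ± 0.63). RD20, a caleosin gene of drought response, had 9.25, 12.8 and 10.1 CPM in bbx28-5 shade, against 2.79, 2.5 and 3.01 CPM in bbx28-5 white light, and 2.8, 1.75 and 1.28 CPM in Col-0 shade, against 2.16, 1.07 and 7.92 CPM in Col-0 white light, where replicate 3 stood apart (interaction 2.89 ± 0.71). AT1G15010, annotated as a mediator subunit, completed the 5 largest positive ones beside HSP21 and HSP18.2 (2.77 ± 0.80). On the negative side the uncharacterized gene AT2G15020 fell in both genotypes but further in bbx28-5, with 1.96, 1.27 and 1.2 CPM in bbx28-5 shade and 9.4, 18.3 and 11.5 CPM in Col-0 shade (interaction -3.38 ± 0.33). The pectin lyase gene AT1G05660 (-2.63 ± 0.37) and the hydroxyproline-rich glycoprotein gene PELPK2 (-2.55 ± 0.34) were also more negative, and AT1G15840 (-4.27 ± 0.89) and MIOX4, a myo-inositol oxygenase (-2.77 ± 0.75), rested on 0 or few counts in Col-0 white light.

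**Figure D5:**
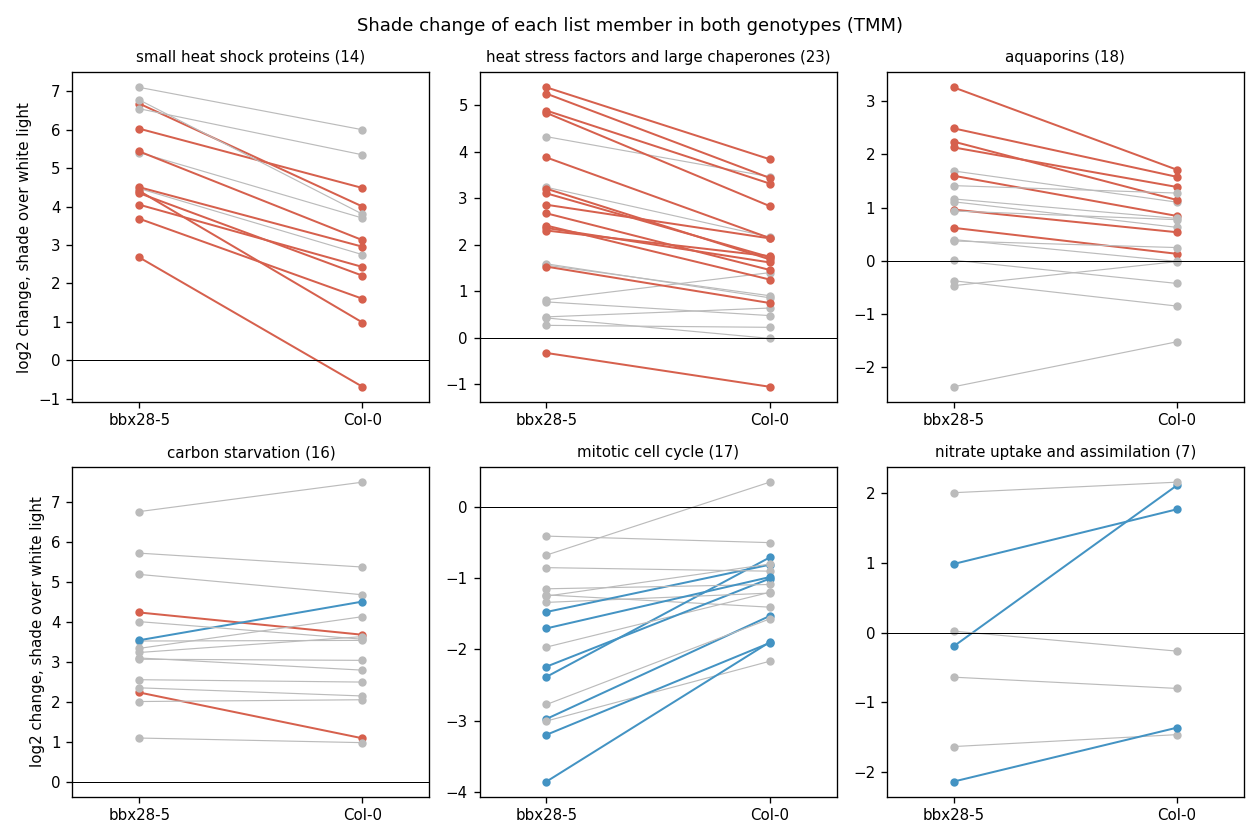
Log2 change between shade and white light of each tested member of 6 gene lists, in bbx28-5 (left of each panel) and Col-0 (right), with a line per gene. Red lines mark genes whose change was more positive and blue lines genes whose change was more negative in bbx28-5 (adjusted interaction p under 0.05), and grey lines the rest. Small heat shock genes slope down to Col-0 (list medians 4.96 and 3.04), and mitotic genes slope up (-1.71 and -1.09).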

How the data were processed

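Per the labels, RNA of whole seedlings was made into libraries with a stranded mRNA kit. The deposited tables hold read counts per gene, for which the submitters' processing notes name FastQC, HISAT, SAMtools, HTSeq and the build TAIR10, and the authors' log2 table, which equals log2 CPM recomputed here with TMM factors and an offset of 0.5. edgeR 4.0.16 (R 4.3.3) fitted the counts of the 12 libraries together, with TMM factors, filterByExpr (19711 of 32833 genes kept), quasi-likelihood F tests and Benjamini-Hochberg adjustment at 0.05. SE is the absolute log2 change divided by the square root of F. It can be too small for genes with few counts in 1 of the groups. The bbx28-5 libraries held 10614484 to 13717606 counts. Alternatives were total counts, DESeq2 size factors, DESeq2 1.42.0, voom with quality weights (limma 3.58.1), a robust spread, no filter, the genes of the authors' table, a replicate block, the 6 bbx28-5 libraries alone, and each library left out. A transcript length offset and total counts without shade replicate 2 were chosen after seeing the data. The fit was also run on simulated counts in which few genes changed, equally in both directions, and no library stood apart. In these data most genes changed and shade replicate 2 stood apart, so that run does not test the fit under such conditions.

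The comparison and the 33 gene lists (512 genes, 496 tested) were chosen with earlier results of these data known. Named genes, at a mean log2 CPM of at least 1 unless taken from a list or by share, were the 10 largest rises and falls past the threshold whose groups do not overlap and whose call held without any 1 of the 6 libraries and with total counts. Added were up to 4 members of each list by adjusted p and members that contrast roles, the 10 genes furthest above and below in shade replicate 2, the 10 largest gains and losses in share of counts, BBX28, and the 5 largest interactions each way. The rule foresaw about 20 to 30 names, and more list members are named for contrasts of roles. Promoters and their coordinates come from the RefSeq assembly TAIR10.1, and the counts carry no coordinates to compare with it.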

Additional observations from a re-analysis of the deposited data

Results flagged for a closer look

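The genes named in the comparison with Col-0 are listed here because the difference between the shade changes of bbx28-5 and Col-0 was itself tested and passed at an adjusted p under 0.05 in edgeR's quasi-likelihood test over all 19711 genes. Values are log2 changes between shade and white light, or their difference. Heat shock genes had positive differences: HSP21 (4.41 in bbx28-5, 0.98 in Col-0, difference 3.43), HSP17.4 (6.68 in bbx28-5, 4.00 in Col-0, difference 2.68), HSP18.2 (2.68 in bbx28-5, -0.69 in Col-0, difference 3.37), HSP90.1 (4.88 in bbx28-5, 3.31 in Col-0, difference 1.57), HSP70 (3.87 in bbx28-5, 2.14 in Col-0, difference 1.73), HSA32 (5.24 in bbx28-5, 3.43 in Col-0, difference 1.81) and MBF1C (5.38 in bbx28-5, 3.83 in Col-0, difference 1.54). Among aquaporin and amino acid breakdown genes the differences were 1.55 for RD28, 0.91 for PIP3, 1.13 for BCDH BETA1 and 0.73 for MCCB, and the autophagy gene ATG8H had 1.35. The carbon fixation genes RCA and FBA1 fell in both genotypes but less in bbx28-5: RCA (-0.59 in bbx28-5, -1.44 in Col-0, difference 0.85) and FBA1 (-0.29 in bbx28-5, -1.54 in Col-0, difference 1.24). The mitotic cyclin genes had negative differences: CYCB1;4 (-3.85 in bbx28-5, -1.90 in Col-0, difference -1.95) and CYCB2;1 (-2.39 in bbx28-5, -0.71 in Col-0, difference -1.67). NIA1, the nitrate reductase gene that rose in Col-0, had the difference -2.31.

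Of the shade markers PAR1 had a difference of 1.24, FHL 1.47, HFR1 0.64, HAT2 0.89, YUC9 -1.59 and IAA19 -0.46. The largest differences over all genes were 3.47 for UBC12, 2.89 for RD20, 2.77 for AT1G15010, -3.38 for AT2G15020, -2.63 for AT1G05660, -2.55 for PELPK2, -4.27 for AT1G15840 and -2.77 for MIOX4, beside HSP21 and HSP18.2. Further differences concern genes described for bbx28-5 alone: TOC1 (2.29 in bbx28-5, 1.67 in Col-0, difference 0.61), PRR5 (2.43 in bbx28-5, 1.46 in Col-0, difference 0.96), PCL1 (2.46 in bbx28-5, 1.59 in Col-0, difference 0.87), RVE8 (-1.49 in bbx28-5, -0.60 in Col-0, difference -0.88), TIN1 (4.38 in bbx28-5, 2.89 in Col-0, difference 1.49), JAZ10 (1.12 in bbx28-5, -0.77 in Col-0, difference 1.89) and TT4 (-0.56 in bbx28-5, -1.67 in Col-0, difference 1.10). They were chosen after their values were seen. Shade replicate 2 of bbx28-5 enters each of these values. With total counts the differences of HFR1 (0.35), TOC1 (0.33) and PCL1 (0.57) did not pass. That of YUC9 did not pass in most fits that leave out 1 library, the fit without shade replicate 2 among them (-1.27). Those of AT1G15840 and MIOX4 rested on few or no counts in Col-0 white light, and UBC12 was close to the floor in Col-0.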

How the results depend on the processing

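The number of genes changed by shade in bbx28-5 (13308) stayed within 1.5 times under every alternative run, from 11658 in a fit to the 6 bbx28-5 libraries alone to 14713 with total counts and without shade replicate 2. It was 12323 to 14499 over the fits that leave out 1 library, 13243 with DESeq2, 14226 with voom and quality weights, in which shade replicate 2 had a weight of 0.0845 against 0.93 to 1.66 for the other libraries, and 14025 with the transcript length offset. With total counts and without shade replicate 2, 20 genes were called in the opposite direction.

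The number of genes whose shade change differed from that of Col-0 (2032, 1285 more positive and 747 more negative) moved more. It was 2592 with DESeq2 (1644 and 948), 3120 with total counts (479 and 2641), 3972 with voom (2579 and 1393), 3758 with the transcript length offset (2295 and 1463) and 5644 with total counts and without shade replicate 2 (990 and 4654). Over the fits that leave out 1 library it ran from 1130 to 4545, the more positive ones from 709 to 3110 and the more negative ones from 421 to 1435, with the highest values without bbx28-5 shade replicate 2. The leave-one-out fits also have fewer samples, and the cause of these shifts was not tested.

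No pairing by replicate number was seen: deviations of same-numbered bbx28-5 libraries correlated at -0.103 to -0.00467, against -0.0274 to 0.0883 for libraries with different numbers. Whether same-numbered samples were grown or processed together was not tested. With the replicate block 13053 genes were changed by shade and 1527 differed from Col-0.

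Of 275 named gene effects, 24 changed sign under some setting, 15 of them with neither value called and 9 with at least 1 of the values called. Those 9 are given here. SPA2 was 0.20 and RBCS2B -0.21 without shade replicate 2, and over the fits that leave out 1 library SPA2 ran from -0.35 to 0.20 and RBCS2B from -0.21 to 0.28. With total counts ISA3 was -0.078, GS2 -0.32, CAB1 -0.28, GAPA -0.079 and PORB -0.016. With total counts and without shade replicate 2, GS2 was -0.33, HSFA1D -0.00195, LHCB4.1 -0.022, CAB1 -0.42, RBCS2B -0.49 and PORB -0.019. Depth limits genes at a few counts per library, the ratios of which have wide intervals.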
